A study of Mus musculus with 24 samples.

Results

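The 10 genes of the oligodendrocyte lineage described here, Pdgfra, Cspg4, Olig1, Olig2, Sox10, Gpr17, Bmp4, Neu4, Enpp6 and Tnr, were followed through mouse cerebellum. They were chosen by name as genes of the lineage, with earlier results of these data known, and all 10 were found among the 43430 genes of the count table. All 10 passed the filter on low counts, which left 15300 genes for testing. The data are 24 polyA-selected RNA sequencing libraries of whole cerebellum from mice of 7 weeks, 6 mice in each of 4 genotype groups, with 3 males and 3 females a group.

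The groups were Cre control, NDI1 control (control mice that express NDI1), cKO (a conditional knockout) and cKO+NDI1 (the knockout with NDI1). NDI1, an enzyme from yeast mitochondria, turns NADH back into NAD+ but moves no protons. The study asked whether restoring NAD+ regeneration alters disease in mice whose brain lacks working mitochondrial complex I. The labels name neither the deleted gene nor the driver of Cre, and they do not say whether the NDI1 control carries Cre. In the published study the deleted gene is Ndufs4, which encodes an accessory subunit of complex I. Ndufs4 ranged from 104 to 164 CPM (counts scaled to the normalised library size) in Cre control and from 67.1 to 133 in cKO, so the ranges overlap. It ranged from 106 to 199 CPM in NDI1 control and from 77.1 to 120 in cKO+NDI1. Which exons were deleted is not given in the sources used here, so these totals are a weak check of the labels.

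Oligodendrocyte precursors divide and persist in adult brain, and some of them mature through a short-lived committed stage into cells that wrap axons in myelin. Pdgfra is the receptor for the growth factor PDGF-A that keeps precursors dividing, and Cspg4 is the NG2 proteoglycan on their surface. Olig1, Olig2 and Sox10 are transcription factors of the whole lineage, while Gpr17, Neu4, Enpp6 and Bmp4 mark committed or newly formed cells. Tnr encodes tenascin-R, an extracellular matrix protein made by lineage cells and by some neurons. Pdgfra is also made by meningeal fibroblasts and Cspg4 by pericytes. In whole tissue, fewer cells of a type and less RNA per cell cannot be told apart.

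The promoter-side sequence of 3 of the genes is shown because Tnr and Pdgfra are the 2 genes called in cKO once gene length is modelled, and Enpp6 is a gene of newly formed oligodendrocytes whose window holds the motif searched. Each run is the 250 bases before the RefSeq start, written 5′ to 3′ on the gene's strand (build GRCm38.p6), and it overlaps no annotated exon. Capitals mark the SOX motif, searched as ACAAAG or ACAATG on both strands. Tnr lies at chr1:159523519-159523768 (+), Pdgfra at chr5:75152001-75152250 (+) and Enpp6 at chr8:46986637-46986886 (+).
Tnr: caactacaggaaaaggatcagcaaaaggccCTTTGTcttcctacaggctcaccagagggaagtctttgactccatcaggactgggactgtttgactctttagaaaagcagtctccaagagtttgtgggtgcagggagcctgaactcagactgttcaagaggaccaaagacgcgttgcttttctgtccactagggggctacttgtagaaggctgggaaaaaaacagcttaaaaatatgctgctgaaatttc
Pdgfra: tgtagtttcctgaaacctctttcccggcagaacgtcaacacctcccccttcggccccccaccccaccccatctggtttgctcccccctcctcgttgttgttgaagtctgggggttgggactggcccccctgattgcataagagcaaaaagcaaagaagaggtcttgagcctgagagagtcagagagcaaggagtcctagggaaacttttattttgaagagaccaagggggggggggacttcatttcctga
Enpp6: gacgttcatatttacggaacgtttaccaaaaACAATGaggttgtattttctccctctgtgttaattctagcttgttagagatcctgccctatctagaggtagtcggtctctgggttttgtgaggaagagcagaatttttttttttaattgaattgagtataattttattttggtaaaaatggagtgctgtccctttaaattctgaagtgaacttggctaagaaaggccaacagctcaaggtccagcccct

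RefSeq start windows were found for 7 of the 10 genes. The SOX motif was in 3 of the 7 windows (Tnr with its first base at position -220, Enpp6 at -219 and Olig2 at -68), beside 25.2% of all 32851 windows of 250 bases. The E-box CAGCTG, of the class of sites that basic helix-loop-helix factors such as OLIG2 bind, was in 0 of the 7, beside 13% of all windows. These are matches of letters in one short window and say nothing on binding.

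All 10 genes were measured in every library, with gene counts from 23 (Bmp4) to 2402 (Olig1). Levels between genes were compared as CPM per kilobase of the deposited gene length. Olig1 was the highest at 57.5 ± 7.84 CPM per kb (SD, n = 24), above Sox10 at 13.8 ± 2.65 and Olig2 at 10.1 ± 1.96. Gpr17, a receptor of committed precursors, followed at 5.99 ± 1.5, and Tnr at 3.18 ± 1.16. Each of these 5 genes was above the next in the order in all 24 libraries, and Tnr was above Pdgfra in all 24. The lower end of the order is less distinct. Pdgfra (1.84 ± 0.271) exceeded Enpp6 (1.84 ± 0.353) in 17 of 24 libraries. Neu4, a sialidase, was at 1.49 ± 0.21 CPM per kb and exceeded Cspg4 (1.13 ± 0.238) in 20 of 24. Cspg4 exceeded Bmp4 (1.06 ± 0.24), a secreted signal, in 14 of 24.

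**Figure D1:**
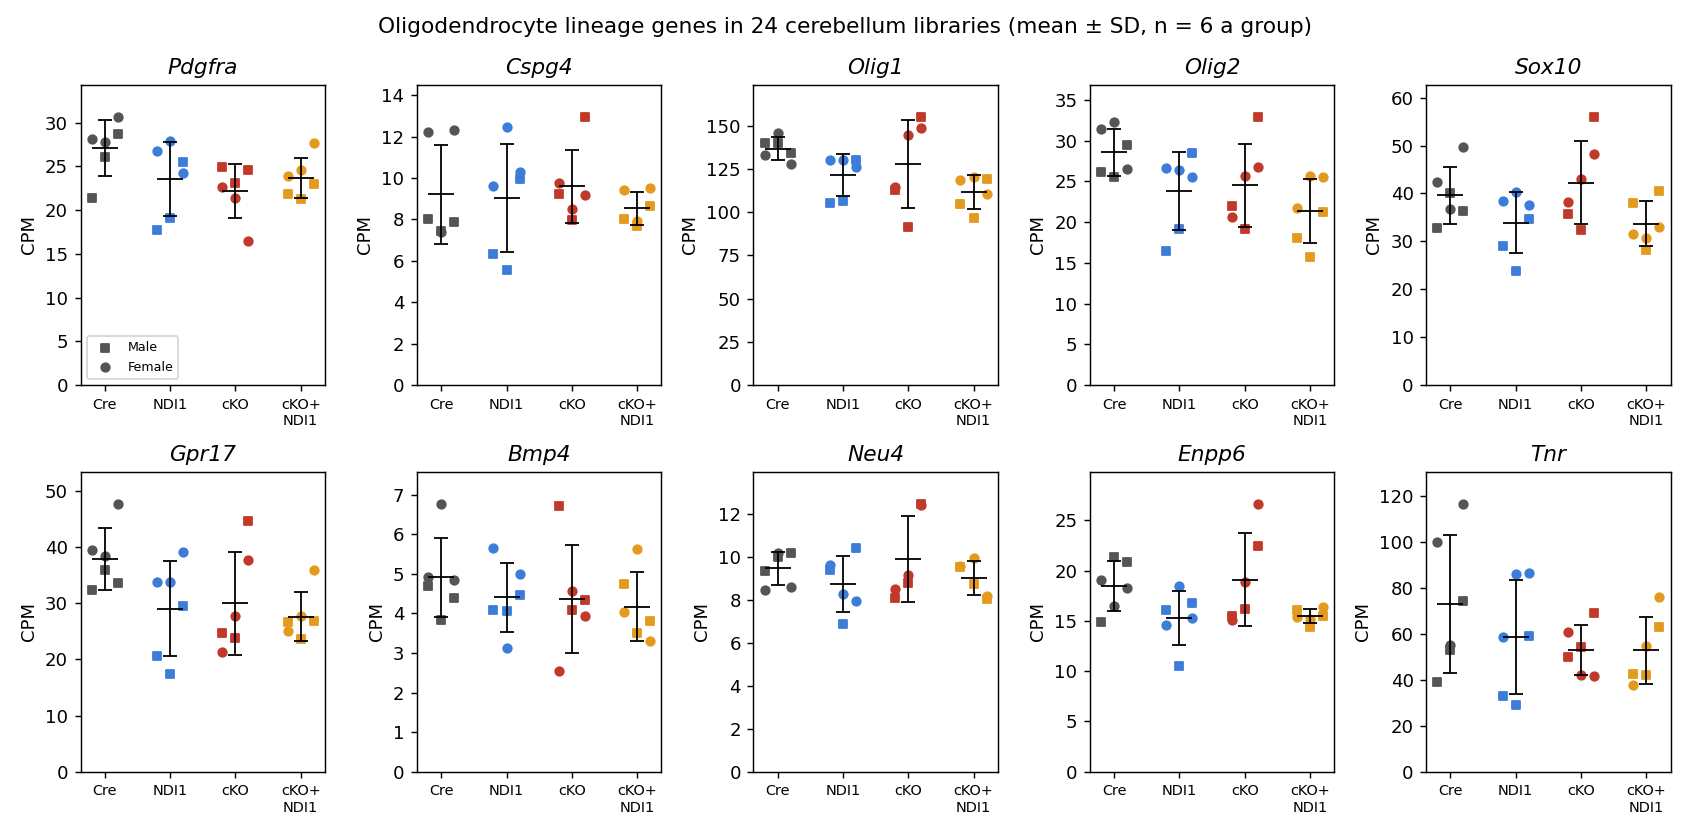
CPM of each gene (vertical axes, starting at 0) in the 24 libraries by genotype group, with squares for males, circles for females, and bars for the mean ± SD of 6 libraries. Within every panel most groups overlap, the exception being Olig1, where the cKO+NDI1 libraries (96.3 to 120 CPM) lie below the Cre control libraries (128 to 146 CPM).

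Library totals ran from 7584374 to 19785264 counts, the smallest being cKO+NDI1 F3, and 1 count in it corresponds to 0.132 CPM. Libraries differed along an axis tied to gene length. A length index was computed for each library as the mean log2 CPM of the 3784 longest genes tested (at least 11575 bases) minus that of the 3783 shortest (at most 3026 bases), leaving out every listed gene. It ran from -0.45 (NDI1 control M2) to 0.38 (Cre control F3). After removal of genotype and sex means, the first principal component held 50.3% of the variance of the tested genes above a low level, and its correlation with the index had a size of 0.998. The index was not balanced over the sexes within groups: its mean was -0.11 in Cre control males, 0.15 in Cre control females, 0.14 in cKO males and -0.01 in cKO females. In 4 of 24 libraries, 1 in each group, there were over 100 summed counts of 12 hindbrain Hox genes, from 127 to 364, while the group medians were 13 to 18.

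The 10 genes differed in how far they followed this axis. Tnr, the longest of them at 18.7 kb, varied most: it ranged from 29.1 to 117 CPM over the 24 libraries, and its spread within groups (SD 0.48 on the log2 scale) exceeded that of 98.5% of 13199 genes. Its correlation with the length index over the 24 libraries was r = 0.98 (rho 0.96, and r = 0.98 without the 2 libraries farthest from the median). Pdgfra (13.1 kb) and Cspg4 (8.05 kb) each had r = 0.76. Gpr17 (5.2 kb) had r = 0.56, Sox10 (2.71 kb) 0.50, Olig2 (2.44 kb) 0.32 and Enpp6 (9.29 kb) 0.21. Olig1, the shortest at 2.16 kb, had r = -0.10, Bmp4 -0.14 and Neu4 -0.18. These values are descriptions over libraries that share the index, which is itself made from the same counts. Many other genes moved with the index as well: 47.4% of the 13199 had an absolute r over 0.7.

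**Figure D2:**
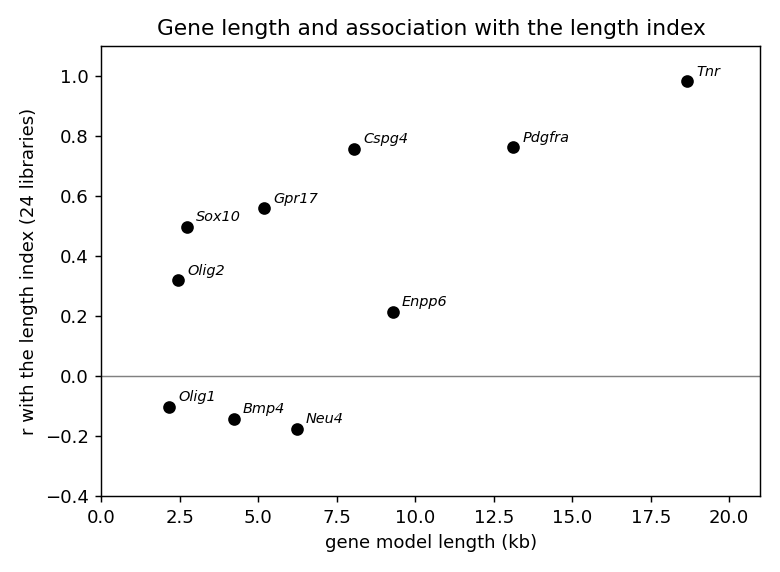
Gene length in the deposited table (kb, horizontal axis) against the correlation of each of the 10 genes with the length index over 24 libraries (vertical axis, genotype and sex means removed). Tnr at 18.7 kb stands at 0.98, while Olig1 at 2.16 kb stands at -0.10.

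The knockout alone was compared first. None of the 10 passed the test between cKO and Cre control (edgeR quasi-likelihood test, Benjamini-Hochberg adjusted p under 0.05), where 4.87% of all genes passed. DESeq2 and limma-voom also called 0 of the 10. At an unadjusted p under 0.05, 1 of the 10 was lower in cKO and 18.5% of all genes differed. No gene of the 10 separated the groups, and 2.69% of all genes did. Of the 10, 6 had a negative log2 fold change and 4 a positive one, with a median of -0.14 beside -0.01 over all genes tested.

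The receptor Pdgfra had the smallest p. It was 21.4, 26.1 and 28.7 CPM in Cre control males and 28.2, 27.8 and 30.6 in Cre control females. In cKO it was from 23.1 to 24.9 CPM in the males and from 16.5 to 22.7 in the females. The 3 cKO females lay below all 3 Cre control females, and the males of both groups overlapped. The log2 fold change was -0.28 ± 0.11 (SE; 95% interval -0.51 to -0.06, adjusted p = 0.143). In females alone the value was -0.53 (adjusted p = 0.0433), and in males alone -0.08 (adjusted p = 0.766). The difference between the sexes was 0.45 ± 0.19 (adjusted p = 0.223).

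Tnr, the matrix protein gene, was from 38.9 to 117 CPM in Cre control (median 64.8) and from 41.8 to 69.2 in cKO (median 52.2). The groups overlapped widely, with 2 Cre control females at 100 and 117 above every cKO library. Its log2 fold change was -0.40 ± 0.25 (adjusted p = 0.416). The direction turned between the sexes, with 0.051 ± 0.27 in males alone (adjusted p = 0.938) and -0.92 ± 0.29 in females alone (adjusted p = 0.11). Gpr17 was from 32.3 to 47.7 CPM in Cre control and from 21.4 to 44.6 in cKO, where 4 of the 6 values lay below the lowest control. Its log2 fold change was -0.32 ± 0.17 (adjusted p = 0.318). One library decided this call: without cKO M3, the highest at 44.6 CPM, the value was -0.52 with an adjusted p of 0.0317.

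The transcription factors moved little. Olig1 changed by -0.10 ± 0.10 on the log2 scale, Olig2 by -0.21 ± 0.13 and Sox10 by 0.10 ± 0.13. Of the other genes of the committed stage, Neu4 was at 0.07 ± 0.12, Enpp6 at 0.05 ± 0.13 and Bmp4 at -0.17 ± 0.18, and Cspg4 was at 0.08 ± 0.16. The 95% intervals of these 7 genes reach at most 0.55 log2 units from 0 (Bmp4, from -0.55 to 0.21).

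A second model that added the length index to genotype and sex was fitted after the data had been seen. In it 2 of the 10, Tnr and Pdgfra, were lower in cKO than in Cre control. That share is near the 21.2% of all genes that passed. Tnr had a log2 fold change of -0.49 ± 0.05 (SE; 95% interval -0.60 to -0.38, adjusted p = 3.53e-07), a fold of 0.713. Scaled to the mean index, Tnr was from 58.5 to 70.8 CPM in Cre control and from 41.6 to 52.7 in cKO, with no overlap. Pdgfra had a log2 fold change of -0.32 ± 0.07 (adjusted p = 0.00196). Scaled to the mean index it was 26.9 ± 2.13 CPM in Cre control and 21.5 ± 2.23 in cKO (SD, n = 6), with the highest cKO library at 24.7 and the lowest control at 24.6.

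The Tnr call held when each of the 24 libraries was left out (log2 fold change from -0.53 to -0.45, adjusted p at most 4.08e-06). It held within each sex: -0.55 ± 0.09 in males (adjusted p = 0.00153) and -0.55 ± 0.07 in females (adjusted p = 0.000148). Pdgfra also kept its call with each library left out (from -0.37 to -0.26, adjusted p at most 0.0101). Within a sex it passed in females (-0.48 ± 0.10, adjusted p = 0.00456) and did not in males (-0.32 ± 0.11, adjusted p = 0.082). Whether the index is a property of the RNA or of the tissue was not tested, so the Tnr and Pdgfra values with and without it stand side by side.

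**Figure D3:**
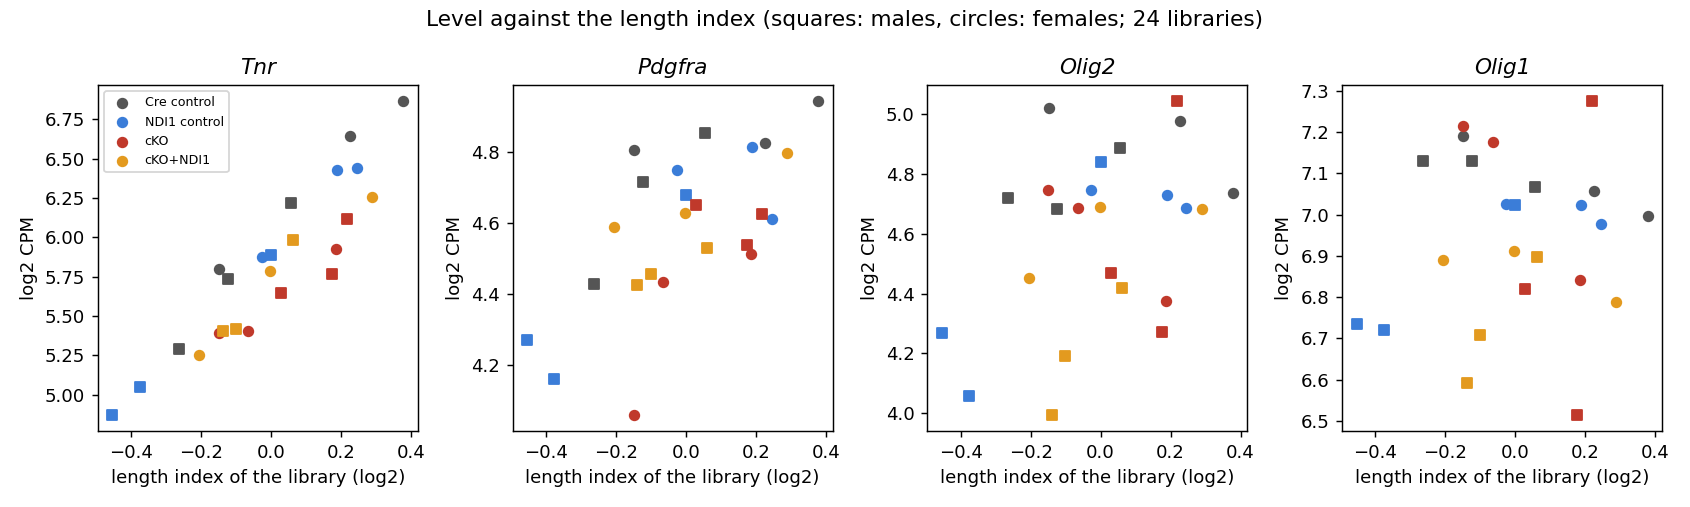
Log2 CPM of Tnr, Pdgfra, Olig2 and Olig1 (vertical axes) against the length index of the library (horizontal axis), with genotype groups in colour. For Tnr the points climb with the index, and at a given index cKO libraries lie below Cre control libraries, whereas Olig1 shows no such slope (r = -0.10).

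With the index in the model, 5 of 13 other precursor genes were lower in cKO than in Cre control and 0 higher, beside 1700 lower and 1540 higher over all genes. The precursor genes that passed included Xylt1, which starts glycosaminoglycan chains (-0.28 ± 0.10), Megf11 (-0.17 ± 0.04), the transcription factor Sox6 (-0.39 ± 0.10) and the phosphatase Ptprz1, a partner of tenascins (-0.34 ± 0.05). Without the index 0 of the 13 passed, with 11 of 13 negative and a median of -0.12. Of 10 genes for tenascin-R partners and perineuronal matrix, 5 were lower with the index and 0 higher, beside 21.2% of all genes called. Among the 5 were the tenascin-R ligand Cntn1 (contactin, -0.33 ± 0.03, adjusted p = 3.16e-07) and Ncan (neurocan, -0.38 ± 0.11). Without the index 2 of those 10 were lower, beside 4.87% of all genes called. These were Hapln4, a link protein of perineuronal nets (175 ± 12.6 CPM in Cre control and 133 ± 12.7 in cKO, adjusted p = 0.00874), and Tnc (tenascin-C, 31.2 ± 7.18 and 16.6 ± 6.62 CPM, adjusted p = 0.0144).

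Signals that act on precursors were examined next, first in the model without the index, where 4.87% of all genes passed. Of 6 PDGF ligands and receptors other than Pdgfra, 1 was higher in cKO and 0 lower: Pdgfb, a ligand made by endothelium, rose from 14.3 ± 1.24 to 19.7 ± 3.42 CPM (log2 fold change 0.47 ± 0.11, adjusted p = 0.0152). Of 21 BMP signalling genes tested, 3 were higher and 0 lower. Chrd, an antagonist that binds BMP proteins, rose by 0.71 ± 0.11 on the log2 scale (adjusted p = 0.000714). Its level was 17.7 ± 3.74 CPM in Cre control, 28.7 ± 3.95 in cKO and 25.6 ± 4.44 in NDI1 control, which has no knockout. Smad6, an inhibitor inside the cell, rose by 0.69 ± 0.18 (adjusted p = 0.0304), and the BMP target Id1 by 0.65 ± 0.17 (adjusted p = 0.0258). Bmp4 itself was 4.91 ± 0.991 CPM in Cre control and 4.36 ± 1.35 in cKO. Of 8 proliferation genes tested, 2 were lower (the replication factor Mcm5 by -0.43 ± 0.11, and Mki67 by -1.51 ± 0.43 at levels of at most 0.836 CPM in Cre control). Once the length index was added, 2 of the 6 PDGF genes and 5 of the 21 BMP genes passed (4 higher and 1 lower), beside 21.2% of all genes. Of the 8 proliferation genes 3 were then lower and 0 higher.

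Genes of later stages of the lineage were counted in both models, beside 4.87% of all genes called without the index. Without the index, of 15 genes of newly formed oligodendrocytes, Tmem163 (the zinc transporter) was lower (-0.34 ± 0.10, adjusted p = 0.0486). Of 22 mature myelin genes, 1 passed, Mal, which was higher (0.42 ± 0.11, adjusted p = 0.0271), and the median of the 22 was 0.06. Of 13 partners and regulators of the lineage factors (SoxE and SoxD genes, Hes and Id repressors, E proteins), 0 passed, with 8 negative. Of 3 other sialidases, 0 passed. With the index, 3 of the 15 newly formed stage genes (1 higher, 2 lower), 4 of the 22 myelin genes (2 higher, 2 lower) and 4 of the 13 partners and regulators (1 higher, 3 lower) passed, beside 21.2% of all genes.

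Markers of other cells moved in the same comparison. Summed over 8 Bergmann glia and astrocyte markers, the level was from 4736 to 4949 CPM in Cre control and from 3941 to 4451 in cKO, and Slc1a3, the glutamate transporter of Bergmann glia, was lower (-0.28 ± 0.05, adjusted p = 0.00262). Summed over 7 endothelial markers it was from 284 to 324 CPM in Cre control and from 304 to 362 in cKO, and Pecam1 was higher (0.76 ± 0.09, adjusted p = 0.000151). Of these 7, 5 had a positive fold change and 2 a negative one. The 8 pericyte markers, cells that share Cspg4, ran from 337 to 397 and from 380 to 430 CPM, with Rgs5 higher (0.25 ± 0.06, adjusted p = 0.0231). The 8 meningeal fibroblast markers, cells that share Pdgfra, ran from 346 to 431 and from 316 to 422 CPM. The 6 inhibitory interneuron markers ran from 849 to 1155 CPM in Cre control and from 762 to 978 in cKO, all 6 with a negative fold change (median -0.21) and 0 called. In the model with the length index, where Tnr and Pdgfra were called, 4 of these 6 (Kit, Grm2, Lgi2 and Gad1) and 4 of the 8 Bergmann glia and astrocyte markers were lower. There 2 of the 8 meningeal fibroblast markers were lower as well and 0 higher, beside 21.2% of all genes called. These were Slc6a13 (-0.32 ± 0.08, adjusted p = 0.00359) and Igf2 (-0.24 ± 0.07, adjusted p = 0.0143). In the same model 2 of the 7 endothelial markers were higher (Pecam1 and Cdh5) and 1 lower (Flt1, -0.19 ± 0.06, adjusted p = 0.0231). Of 5 Purkinje cell markers, 2 were lower (Itpr1 and Car8) and 0 higher. No marker in these lists was at 0 in all libraries. Their part in the values of the 10 genes was not tested.

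NDI1 in the knockout was compared next. Of the 10 genes none passed between cKO+NDI1 and cKO by edgeR, DESeq2 or limma-voom, where edgeR called 0.209% of all genes. Of the 10, 9 were negative and 1 positive, with a median of -0.16 beside -0.01 over all genes. Before adjustment, at p under 0.05, 2 of the 10 were lower, beside 8.56% of all genes. No gene of the 10 separated the groups, and 0.954% of all genes did.

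Those 2 were Sox10 and Enpp6. Sox10, which drives myelin gene transcription, was from 32.5 to 55.9 CPM in cKO (median 40.6) and from 28.2 to 40.6 in cKO+NDI1 (median 32.3), so the 2 groups overlap. Its log2 fold change was -0.32 ± 0.13 (adjusted p = 0.463). Enpp6, a choline phosphodiesterase of newly formed oligodendrocytes, was from 15.1 to 26.6 CPM in cKO and from 14.4 to 16.4 in cKO+NDI1. The cKO+NDI1 values were tight (SD 0.69 CPM) and the cKO values wide (SD 4.61). The highest cKO value was that of F3, a library with 327 Hox counts. Within groups the r of Enpp6 with the Hox level was 0.51, and 0.25 without the 2 libraries farthest from the median. Its log2 fold change was -0.31 ± 0.13 (adjusted p = 0.506).

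The other members of the set had smaller values. Olig1 was at -0.19 ± 0.10, Olig2 at -0.22 ± 0.13, Gpr17 at -0.14 ± 0.17, Cspg4 at -0.18 ± 0.16 and Neu4 at -0.14 ± 0.12. Bmp4 was at -0.04 ± 0.19, Tnr at -0.04 ± 0.25 and Pdgfra, the 1 positive gene, at 0.08 ± 0.11. With the length index in the model 0 of the 10 passed, beside 2.67% of all genes, and Tnr was at 0.16 ± 0.05 (adjusted p = 0.105).

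Some myelin genes and 1 newly formed stage gene did pass in this comparison, beside 0.209% of all genes. Of 22 mature myelin genes 5 were lower in cKO+NDI1 and 0 higher, with 20 of 22 negative and a median of -0.29. The myelin membrane gene Mobp was 1781 ± 337 CPM in cKO and 1159 ± 115 in cKO+NDI1 (adjusted p = 0.00728). Tspan2 fell from 305 ± 28.9 to 213 ± 18.7 CPM (adjusted p = 0.00728), Mal from 576 ± 133 to 364 ± 19.9 (adjusted p = 0.0094), and Cldn11, the claudin of myelin junctions, by 0.56 ± 0.10 on the log2 scale (adjusted p = 0.0187). The fifth was Mbp (adjusted p = 0.0194). Of the 15 newly formed stage genes Bcas1 was lower, at 255 ± 27.2 CPM in cKO and 198 ± 15.7 in cKO+NDI1 (adjusted p = 0.033). Of the 13 other precursor genes 0 passed, with 6 negative and a median of 0.03. With the length index 2 of those 13 were higher and 0 lower, beside 2.67% of all genes. These were Megf11 (0.16 ± 0.04, adjusted p = 0.0401) and Ptprz1 (0.20 ± 0.05, adjusted p = 0.0246). In that model Tnc was also higher (0.66 ± 0.16, adjusted p = 0.0338), and 7 of the 22 myelin genes were lower.

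The knockout with NDI1 was also compared with Cre control. No gene of the 10 passed by edgeR or limma-voom, and DESeq2 called 1, beside 1.25% of all genes by edgeR. All 10 were negative, with a median of -0.24 beside -0.0045 over all genes. Without adjustment (p under 0.05), 3 of the 10 were lower, beside 13.5% of all genes. Olig1 separated the groups, and 1.58% of all genes did.

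The 3 were Olig2, Olig1 and Gpr17. Olig2, the factor that specifies the lineage, was 26.2, 25.5 and 29.5 CPM in Cre control males and 31.4, 32.4 and 26.5 in the females. In cKO+NDI1 it was 18.1, 15.8 and 21.3 CPM in males and 21.7, 25.7 and 25.5 in females. The highest cKO+NDI1 library, F2, was the 1 that reached into the control range. The log2 fold change was -0.43 ± 0.13 (95% interval -0.70 to -0.16, adjusted p = 0.105). It passed by DESeq2 (adjusted p = 0.0476), in a fit of these 2 groups alone (adjusted p = 0.0454) and with the length index (adjusted p = 0.0331). It also passed without cKO M3 (adjusted p = 0.0475), a library that is in neither of the 2 groups. With each library left out the adjusted p ran from 0.0475 to 0.29, and in the other alternatives it reached 0.538.

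Olig1, its neighbour on chromosome 16 and partner in the lineage, was 139.9, 139.9 and 133.9 CPM in Cre control males and 133.0, 145.9 and 127.5 in females. In cKO+NDI1 it was 104.4, 96.3 and 119.1 CPM in males and 118.5, 120.3 and 110.4 in females, all below the controls. The log2 fold change was -0.30 ± 0.10 (95% interval -0.49 to -0.10, adjusted p = 0.137). Gpr17 was from 32.3 to 47.7 CPM in Cre control and from 23.7 to 35.8 in cKO+NDI1, where F3 alone lay within the control range. Its log2 fold change was -0.46 ± 0.17 (adjusted p = 0.195), and in a fit of these 2 groups alone the adjusted p was 0.034. Exons of Gpr17 overlap those of Lims2 on the opposite strand, and the strand setting of the counting is not given in the sources used here. Exons of Tnr, Pdgfra, Olig1 and Bmp4 also overlap those of other genes on the opposite strand, and for Pdgfra on the same strand as well.

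With the length index in the model 2 of the 10 were lower than in Cre control, Tnr and Olig2, beside 10.9% of all genes. Tnr was at -0.33 ± 0.05 (adjusted p = 0.000181), and this held with each of 24 libraries left out. Olig2 was at -0.42 ± 0.13 (adjusted p = 0.0331), and it passed in 16 of the 24 fits that left out a library, with an adjusted p of up to 0.0921. This Olig2 call was lost without the 4 libraries with most Hox counts (-0.43, adjusted p = 0.14) and in females alone (-0.35 ± 0.10, adjusted p = 0.0927). Without the index, Tnr was at -0.44 ± 0.25 (adjusted p = 0.463).

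Myelin genes were counted in the same comparison without the index, where 1.25% of all genes passed. Of the 22 mature myelin genes 4 were lower and 0 higher, with a median of -0.27. The median of the 10 genes, of which 0 passed by edgeR, was close to this at -0.24. Those that passed included Gjc3 (-0.32 ± 0.06), Mbp (-0.38 ± 0.09) and Mobp (-0.40 ± 0.10). Bcas1 fell from 264 ± 8.72 to 198 ± 15.7 CPM (adjusted p = 0.00848). All 13 other precursor genes were negative and 0 passed (median -0.12). With the length index 1 of those 13, Ptprz1, was lower (-0.14 ± 0.05, adjusted p = 0.0492), beside 10.9% of all genes. Without the index, Chrd (0.66 ± 0.11, adjusted p = 0.0066) and Pdgfb (0.53 ± 0.11, adjusted p = 0.0249) were higher.

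NDI1 without the knockout was compared with Cre control. None of the 10 passed by edgeR, DESeq2 or limma-voom, beside 0.00654% of all genes by edgeR. All 10 were negative, with a median of -0.22 beside 0.0054 over all genes. By unadjusted p under 0.05, 2 of the 10 were lower (Gpr17 and Enpp6), beside 9.2% of all genes. None separated the groups, and 0.386% of all genes did. Gpr17 was 20.6, 17.3 and 29.4 CPM in NDI1 control males and 33.7, 33.8 and 39.2 in females, so the males lay below all Cre control libraries and the females did not. Its log2 fold change was -0.40 ± 0.17 (adjusted p = 0.473). Enpp6 was at -0.27 ± 0.13 (adjusted p = 0.54). The NDI1 control males M1 and M2 also have the 2 lowest length indices of the series, -0.38 and -0.45. With the index in the model 0 of the 10 passed, beside 2.33% of all genes. In that model 1 of the 21 BMP genes was higher and 0 lower (Chrd, 0.48 ± 0.08, adjusted p = 0.00312). Of the 10 genes for tenascin-R partners and perineuronal matrix, 1 was lower and 0 higher (Hapln4, -0.19 ± 0.05, adjusted p = 0.033).

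The 2 NDI1 groups were then set against the 2 groups without NDI1, a comparison added after the data had been seen, which shares all its libraries with those above. Of the 10 genes none passed by edgeR, DESeq2 or limma-voom, beside 0.582% of all genes by edgeR. All 10 were negative, with a median of -0.18 beside -0.0018 over all genes. At an unadjusted p under 0.05, 5 of the 10 were lower, beside 13.5% of all genes. They were Enpp6 (-0.29 ± 0.09, adjusted p = 0.179), Sox10 (-0.27 ± 0.09, adjusted p = 0.195), Olig1 (-0.19 ± 0.07, adjusted p = 0.23), Olig2 (-0.24 ± 0.09, adjusted p = 0.257) and Gpr17 (-0.27 ± 0.12, adjusted p = 0.32). Of the 22 mature myelin genes 7 were lower and 0 higher, with a median of -0.24. Bcas1 was lower (-0.33 ± 0.05, adjusted p = 0.00606).

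**Figure D4:**
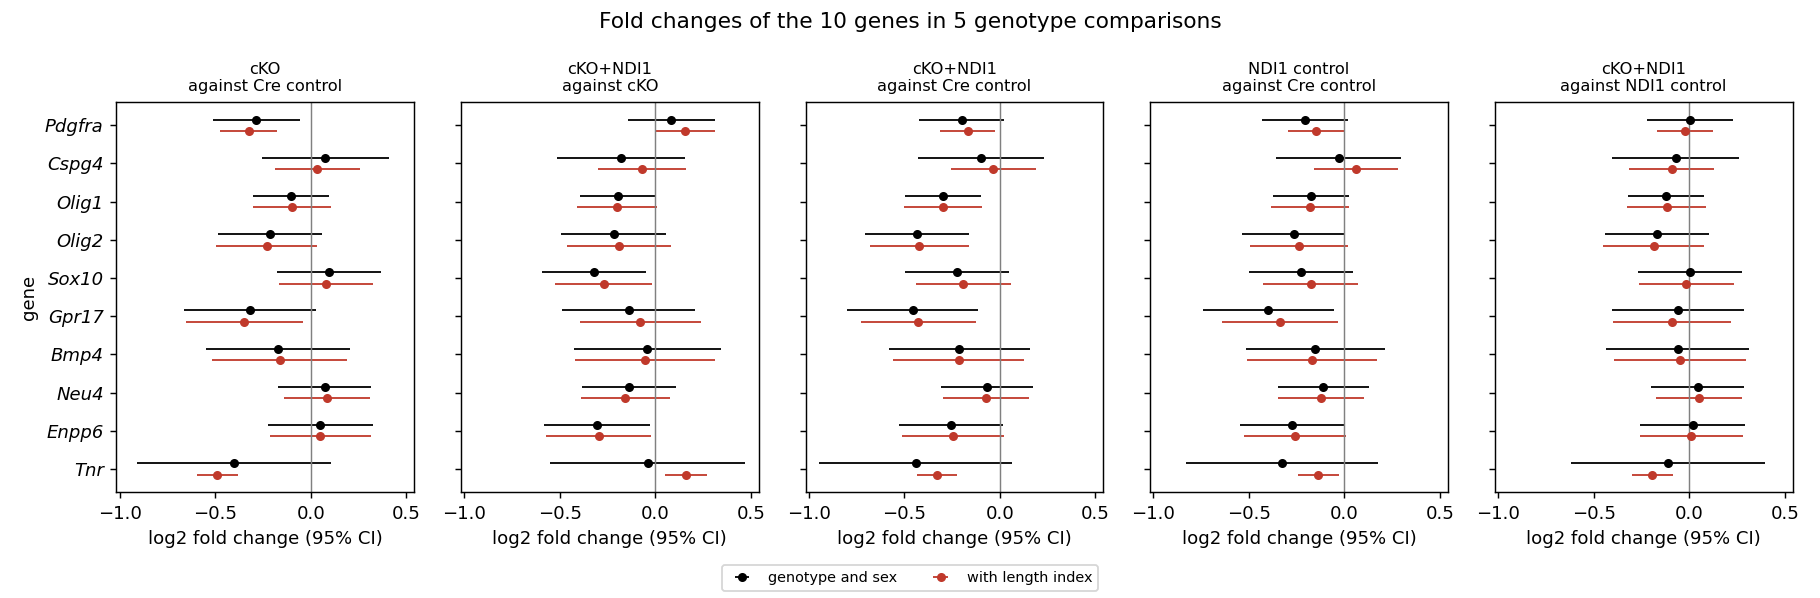
Log2 fold change with its 95% interval (horizontal axes) for the 10 genes in 5 genotype comparisons, from the model of genotype and sex (black) and the model with the length index added (red). The interval of Tnr narrows with the index and lies below 0 for cKO against Cre control (-0.60 to -0.38), and the intervals of Pdgfra and Cspg4 narrow less.

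The effect of the knockout with NDI1 present was then examined. No gene of the 10 passed between cKO+NDI1 and NDI1 control by any of the 3 tools, beside 0% of all genes by edgeR. Before adjustment, at p under 0.05, 0 of the 10 differed, beside 4.48% of all genes, and none separated the groups, beside 0.314%. The values ran from -0.17 (Olig2) to 0.05 (Neu4). With the length index 0 of the 10 passed, beside 0.327% of all genes, and Tnr was at -0.19 ± 0.05 (adjusted p = 0.108).

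The interaction of knockout and NDI1, the difference between the knockout's effects with and without NDI1, was passed by none of the 10 in any of the 3 tools, beside 0% of all genes by edgeR. Without adjustment (p under 0.05), 0 of the 10 differed, beside 5.18% of all genes. Pdgfra had the largest value, 0.29 ± 0.15 (95% interval -0.03 to 0.61, adjusted p = 0.998). With the length index Tnr passed, at 0.30 ± 0.07 (adjusted p = 0.0479), beside 0.85% of all genes. That call held in 5 of the 24 fits that left out a library, with an adjusted p of up to 0.0941, and it was lost without the 4 libraries with most Hox counts (adjusted p = 0.15). Among the other listed genes Chrd (-0.58 ± 0.12, adjusted p = 0.0176), Hapln4 (0.34 ± 0.07, adjusted p = 0.0176) and Itpr1 (0.27 ± 0.06, adjusted p = 0.0379) passed in that model.

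Sex was balanced over the groups. None of the 10 passed between males and females by any of the 3 tools, beside 0.085% of all genes by edgeR. By unadjusted p under 0.05, 4 of the 10 were lower in males, beside 16.9% of all genes: Tnr (-0.40 ± 0.18), Gpr17 (-0.26 ± 0.12), Cspg4 (-0.26 ± 0.11) and Olig2 (-0.21 ± 0.09), each with an adjusted p of 0.291. With the length index Tnr was at -0.05 ± 0.04. The effect of the knockout was also compared between the sexes, and 0 of the 10 differed by any of the 3 tools, beside 0% of all genes by edgeR. At an unadjusted p under 0.05, 3 of the 10 differed, all positive, beside 20.6% of all genes. They were Tnr (0.98 ± 0.44), Bmp4 (0.76 ± 0.35) and Pdgfra (0.45 ± 0.19). With the length index the value of Tnr was 0.04 ± 0.12, that of Bmp4 1.06 ± 0.34 (adjusted p = 0.353) and that of Pdgfra 0.21 ± 0.15 (adjusted p = 0.666).

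The 10 genes also varied together within groups. After removal of genotype and sex means, the 45 pairs had a median r of 0.45 over 24 libraries, from -0.16 to 0.81, and 19 exceeded 0.5. The highest was Sox10 with Gpr17 (r = 0.81, rho 0.78, and 0.76 without 2 libraries). Olig1 with Olig2 had r = 0.77, and Neu4 with Enpp6 0.69. Cspg4 with Tnr (0.78) and Pdgfra with Tnr (0.75) were as high, but these dropped to 0.33 and 0.04 when the length index was removed as well. Olig1 with Olig2 was then at 0.85 and Sox10 with Gpr17 at 0.73. Once the index was removed, Pdgfra had r from -0.20 to 0.36 with the other 9 genes, and Bmp4 from -0.14 to 0.36. These are descriptions over libraries that share depth and composition.

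**Figure D5:**
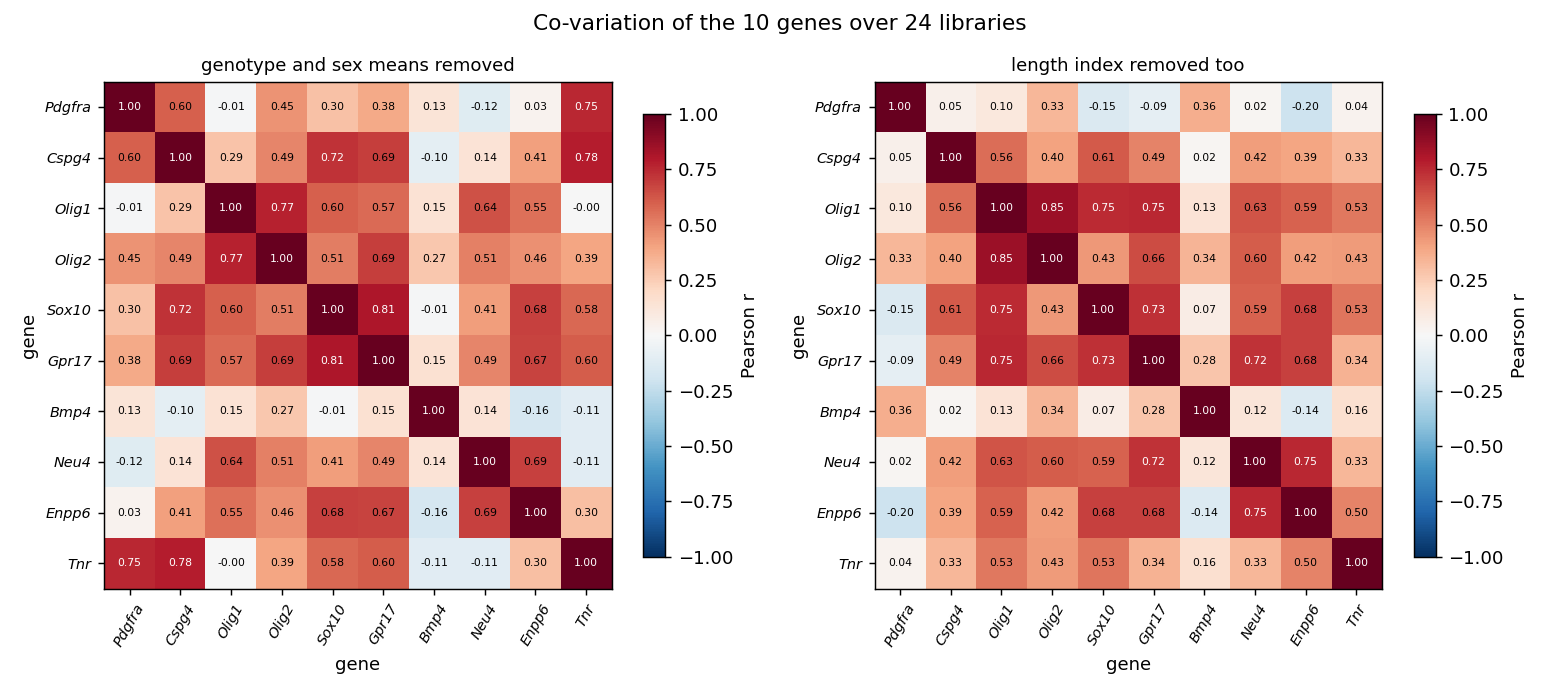
Pearson r for each pair of the 10 genes over 24 libraries after removal of genotype and sex means (left) and of the length index too (right), with colour from -1 to 1. Olig1 with Olig2 goes from 0.77 to 0.85, whereas Pdgfra with Tnr goes from 0.75 to 0.04.

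The genes most like each member were sought among 12475 expressed genes by the same measure. Among those nearest to Enpp6 were Fa2h, which makes myelin lipids (r = 0.86, rho 0.88), and Epb41l2 (0.85). Among those nearest to Olig1 were Mag, a myelin adhesion protein (0.82), and Gna12 (0.82). Olig2 was nearest to Selenon (0.87), the SoxE factor Sox8 (0.83) and Slain1 (0.79). Neu4 was nearest to Sirt2, a deacetylase abundant in myelin (0.84), then Sost (0.73) and Col26a1 (0.73).

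Among those nearest to Sox10 were Tmem151a (0.87) and Cd93 (0.85). Gpr17 was nearest to Capn5 (0.86), Rasgrp3 (0.85) and Adam19 (0.85), and Bmp4 to Rab3il1 (0.78), Tsku (0.75) and Keap1 (0.75). The nearest genes of the other 3 followed the length index themselves. Tnr was nearest to Clasp1 (r = 0.99), Agap1 (0.99) and Celsr2 (0.99), each with an r of 0.98 with the index. Cspg4 was nearest to Hspg2 (0.93), Upf1 (0.90) and Ap2a1 (0.90), whose r with the index was from 0.83 to 0.91. Pdgfra was nearest to Sart1 (0.90), Mest (0.89) and Mfn2 (0.89), whose r with the index was from 0.81 to 0.85.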

How the data were processed

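RNA came from frozen whole cerebellum. Libraries were made with a NEBNext Ultra kit and polyA selection, per the labels' protocols. The submitters' processing notes name bcl2fastq, Trimmomatic, STAR and HTSeq with build mm10, and versions are not given in the sources used here. The deposited values are whole-number read counts per gene, not normalised by the authors, and the deposited gene length (bases) has no stated origin. Gene symbols were matched by Ensembl identifier for 42462 of 43430 genes, and 0 library columns were left unused. Lhfpl3 and 9630013A20Rik were not analysed here. A few genes that the naming rule would name are not reported here.

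Groups, sexes and replicate numbers were taken from the labels. Counts were TMM-normalised and filtered with filterByExpr by group. Genes were tested with the quasi-likelihood method of edgeR (edgeR 4.0.16, limma 3.58.1, R 4.3.3) on all 24 libraries with genotype and sex, adjusted by Benjamini-Hochberg over 15300 genes at 0.05. SE is the fold change divided by the square root of F. Log2 CPM used a prior count of 2. DESeq2 1.42.0, limma-voom, other scalings, filters and left-out libraries were alternatives. The model without the length index was run on simulated counts, which had no axis tied to gene length. That run is no check of the calls made with the index.

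The 10 genes, the other lists and the tests were chosen with earlier results of these data known. By the naming rule the 10 genes are described in every comparison (as a range or count where few differed), with at most 4 genes that passed from each other list, by smallest p, the first 2 genes of marker lists and the 3 nearest genes of each member. Named beyond this rule, after their values were seen, are Ndufs4, the fifth myelin gene that passed and genes called with the length index. No 2 libraries of a group were copies (chi-square per degree of freedom at least 4.67 over 60 pairs). The labels name the libraries of a group as biological replicates, and 95% intervals come from the fitted spread.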

Additional observations from a re-analysis of the deposited data

Results flagged for a closer look

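In 3 of 40 groups of 6 values (10 genes in 4 genotype groups) 1 library lay apart from the other 5 of its group by more than Dixon's critical gap, and chance gives about 1 group in 20. Cspg4 in cKO M3 was 12.9 CPM, and the next value of the group was 9.74. Gpr17 in cKO+NDI1 F3 was 35.8 CPM, with the next at 27.7, and this library has the smallest total of the series (7584374 counts). Bmp4 in Cre control F2 was 6.77 CPM, with the next at 4.93.

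Without the length index, the effect of cKO+NDI1 against cKO on Pdgfra went opposite ways in the sexes. The 3 cKO+NDI1 males (21.3 to 23 CPM) lay below the 3 cKO males (23.1 to 24.9), and the 3 cKO+NDI1 females (23.9 to 27.6) lay above the 3 cKO females (16.5 to 22.7). The male value minus the female value was -0.47 on the log2 scale, and this difference was not tested. The mean length index was 0.14 in cKO males and -0.06 in cKO+NDI1 males. Scaled to the mean index, the males overlapped, at 21.2 to 24.7 CPM in cKO and 22.4 to 23.1 in cKO+NDI1. The cKO+NDI1 females, so scaled (24.0 to 26.6 CPM), still lay above the cKO females (17.9 to 22.3).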

How the results depend on the processing

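Across 37 alternatives, 312 of 321 counts of the 10 genes called were those reported, and 9 moved. For cKO against Cre control the count was 0 in the model reported, 1 in females alone (Pdgfra), 2 with the length index, and from 0 to 1 when each library was left out (1 without cKO M3, Gpr17). For cKO+NDI1 against Cre control it was 1 with DESeq2, 2 with these groups alone, 2 with the length index, and from 0 to 1 when each library was left out (1 without cKO M3, Olig2). For the interaction it was 1 with the length index. The cause of these moves was not tested.

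The replicate numbers were not taken as pairs: same-numbered libraries of different groups had a median correlation of deviations of 0.26, with a lowest of -0.39, and 9 of 24 libraries correlated best with their own number. With the replicate number as a block, 1 of the 10 genes was called in cKO+NDI1 against Cre control (Olig2, -0.44), and the count changed in none of the other genotype comparisons.

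Of 3210 fold changes, 128 changed sign, 104 of them by no more than 1 SE, and 24 moved further. In males alone the log2 fold changes for cKO against Cre control were 0.19 (Bmp4), -0.082 (Enpp6) and 0.051 (Tnr), for cKO+NDI1 against cKO -0.12 (Pdgfra), for cKO+NDI1 against NDI1 control 0.15 (Cspg4), 0.20 (Gpr17) and 0.28 (Tnr), for cKO+NDI1 against Cre control 0.064 (Cspg4), and for the interaction 0.13 (Olig1), 0.12 (Sox10), -0.24 (Bmp4) and 0.17 (Enpp6). In females alone they were -0.24 (Cspg4, cKO against Cre control), 0.26 (Bmp4) and 0.22 (Tnr) for cKO+NDI1 against cKO, -0.29 (Sox10, cKO+NDI1 against NDI1 control) and 0.10 (Pdgfra, NDI1 present against absent). Pdgfra was at 0.020 in the last comparison with counts thinned to the smallest total, and Tnr at 0.011 with the length index. For the knockout's effect in males minus females, Sox10 was at -0.078 with the length index and Enpp6 at 0.10 without the 4 libraries with most Hox counts. With each library left out, Gpr17 in cKO+NDI1 against cKO ran from -0.24 to 0.067, and the sex difference of the knockout's effect ran from -0.097 to 0.335 for Olig2 and from -0.10 to 0.335 for Sox10, each with its reversed end without cKO M3. The fits with the length index used 1 slope for all groups. Bmp4, at 23 to 101 counts, is the least precise of the 10.

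Over all genes, the number called in cKO against Cre control was 745 in the model reported, 1159 with DESeq2, 425 with no filter, 263 with these groups alone, 38 in males, 364 in females, 301 without the 4 libraries with most Hox counts and 3240 with the length index. For cKO+NDI1 against Cre control it was 191 in the model reported, 491 with DESeq2, 18 without those 4 libraries and 1675 with the length index, and for cKO+NDI1 against cKO 32, 110, 17 and 409.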
